A study of Rattus norvegicus with 8 samples.

Results

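The messenger RNAs of 10 genes of glycolysis (Hk1, Hk2, Pfkm, Aldoa, Tpi1, Pgk1, Pgam1, Eno1, Eno2 and Ldha) were followed in rat brain early after stroke. Every probe set, a group of short array probes that together report 1 transcript, was taken whose platform annotation gives a single symbol equal to 1 of these genes. This gave 13 of the 15866 probe sets that are not array controls, and all 10 genes were represented. Affymetrix RAE 230A arrays had been hybridised with RNA from male Wistar rats of 7 weeks and 160 to 200 g, and the values are the deposited linear signals, in arbitrary units. There were 4 groups of 2 arrays. Sham-operated vehicle rats received 0.9% NaCl, 2 injections a day for 5 days, and then sham surgery. MCAO vehicle rats received the same injections and then middle cerebral artery occlusion (MCAO) on the right side, which lasted 90 min and was released to let blood back in. Sham-operated candesartan rats received 0.1 mg/kg candesartan, a blocker of the angiotensin AT1 receptor, on the same schedule before sham surgery. MCAO candesartan rats received candesartan before the occlusion. The sample label puts both MCAO candesartan arrays in that group, while the treatment text of the second one gives no pretreatment, dose or schedule. Tissue from part of the right hemisphere gave the RNA, taken 2 h after surgery. Each array carries RNA pooled from 2 rats, and the 2 pools of a group are independent, so the values are not those of single rats.

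Glycolysis splits glucose into pyruvate in the cytosol and yields ATP without oxygen. Lactate dehydrogenase then turns pyruvate into lactate, which regenerates the NAD+ that the pathway needs when respiration stops. In the brain, glycolysis runs in neurons and in astrocytes, and many of its genes are known targets of the hypoxia-inducible factor HIF-1, which binds DNA at a short core sequence called the hypoxia response element. In tissue RNA such as this, fewer cells of a type and less RNA per cell cannot be told apart.

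The promoters of 4 members are printed because these genes had, among the members that passed the signal filter used below, the largest differences in size between MCAO and sham in candesartan rats; they were chosen after those values were seen. The windows come from RefSeq, build GRCr8, and run from 250 bases before to 50 bases after the annotated start, 5′ to 3′ on the gene's strand. All are of 300 bases. They lie at chr1:106507842-106508141 (plus strand) for Ldha, chr1:190837972-190838271 (minus strand) for Aldoa, chr5:166002617-166002916 (plus strand) for Eno1 and chr4:159267171-159267470 (minus strand) for Eno2. Capitals mark each match to ACGTG or GCGTG on either strand.
Ldha: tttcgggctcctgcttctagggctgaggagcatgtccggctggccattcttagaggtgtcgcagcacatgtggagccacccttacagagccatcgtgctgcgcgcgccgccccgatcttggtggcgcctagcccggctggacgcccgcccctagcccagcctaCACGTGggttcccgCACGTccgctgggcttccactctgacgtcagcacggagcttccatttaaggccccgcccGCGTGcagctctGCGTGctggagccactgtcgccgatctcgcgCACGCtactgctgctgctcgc
Aldoa: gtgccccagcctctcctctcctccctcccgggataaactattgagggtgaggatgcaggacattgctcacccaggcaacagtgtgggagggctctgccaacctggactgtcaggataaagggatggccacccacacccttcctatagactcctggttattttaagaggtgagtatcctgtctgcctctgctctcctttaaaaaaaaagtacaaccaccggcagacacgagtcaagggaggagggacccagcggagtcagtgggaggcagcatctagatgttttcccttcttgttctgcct
Eno1: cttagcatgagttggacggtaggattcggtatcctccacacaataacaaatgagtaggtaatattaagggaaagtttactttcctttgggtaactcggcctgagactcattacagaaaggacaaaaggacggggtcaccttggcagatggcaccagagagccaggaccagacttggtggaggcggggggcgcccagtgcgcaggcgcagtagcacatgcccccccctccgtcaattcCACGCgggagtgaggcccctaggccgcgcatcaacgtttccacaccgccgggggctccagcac
Eno2: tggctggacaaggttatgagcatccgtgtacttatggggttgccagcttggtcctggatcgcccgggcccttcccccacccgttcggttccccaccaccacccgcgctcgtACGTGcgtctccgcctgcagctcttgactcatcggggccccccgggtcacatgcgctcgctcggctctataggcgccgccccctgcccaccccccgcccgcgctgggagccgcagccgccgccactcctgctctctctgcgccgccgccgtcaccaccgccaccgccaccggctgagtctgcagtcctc
The Ldha window held 6 matches, of which 2 overlap in the run CACGTG, which reads the same on both strands. Eno1 and Eno2 held 1 match each, and Aldoa held none. Of the 9 members with a promoter in the table, 5 held at least 1 match: Pfkm with 1, Pgam1 with 2, Eno1, Eno2 and Ldha. Hk1, Hk2, Aldoa and Tpi1 held none, and the promoter of Pgk1 was not analysed here. Among all 33469 promoters of the table, 41.6% held either motif, 19.3% held ACGTG and 29.7% held GCGTG. These are matches of letters, not measured binding sites, and only 1 annotated start was searched for each member.

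Differences between groups were tested with limma on log2(signal + 369.9), an offset equal to the 20th percentile of the deposited values, and p-values were adjusted by Benjamini-Hochberg over all probe sets tested. Testing required a signal above 916.3 (the 40th percentile) on 2 or more of the 8 arrays. This kept 10310 probe sets and 11 of the 13 of glycolysis. The other 2, Hk2 1369006_at and Pgk1 1368906_at, stayed below that signal on every array. Calls were made where the adjusted p fell below 0.05. Every difference below is on the log2 scale with its standard error (SE) or 95% confidence interval.

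Genes known to respond to ischaemia separated the MCAO from the sham arrays. Fos, an immediate early gene, was higher after MCAO by 2.76 ± 0.11 (SE, 4 against 4 arrays, limma adjusted p = 1.31e-06). The inducible heat shock gene Hspa1a was higher by 3.36 ± 0.21 (SE, limma adjusted p = 1.93e-05). The rise of Hspa1a was not alike on the MCAO arrays. It read 27296.1 and 29810.3 after MCAO with vehicle and 5793.8 and 14082.2 after MCAO with candesartan. Fos read 10898.8 and 7984.5, then 6332.2 and 7694.7 in the same order. The array labelled MCAO candesartan 2 stood apart from the rest. It correlated with the others at 0.951 on average, where each other array reached 0.970 or more. The 3′ to 5′ ratio of its hexokinase control probe sets was 1.54, against 2.07 to 2.63. The same ratios for Gapdh and for beta-actin lay within the range of the other arrays. The array's control probe sets for Gapdh, itself a glycolysis enzyme but outside the rule, read 84067.8 to 95243.1 there and 49047.7 to 69961.5 on the other arrays. Those for beta-actin were likewise highest there. The values of tested members that this array moved most are given without it as well. For Hk2, which did not pass the signal filter, no such value is given.

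**Figure D1:**
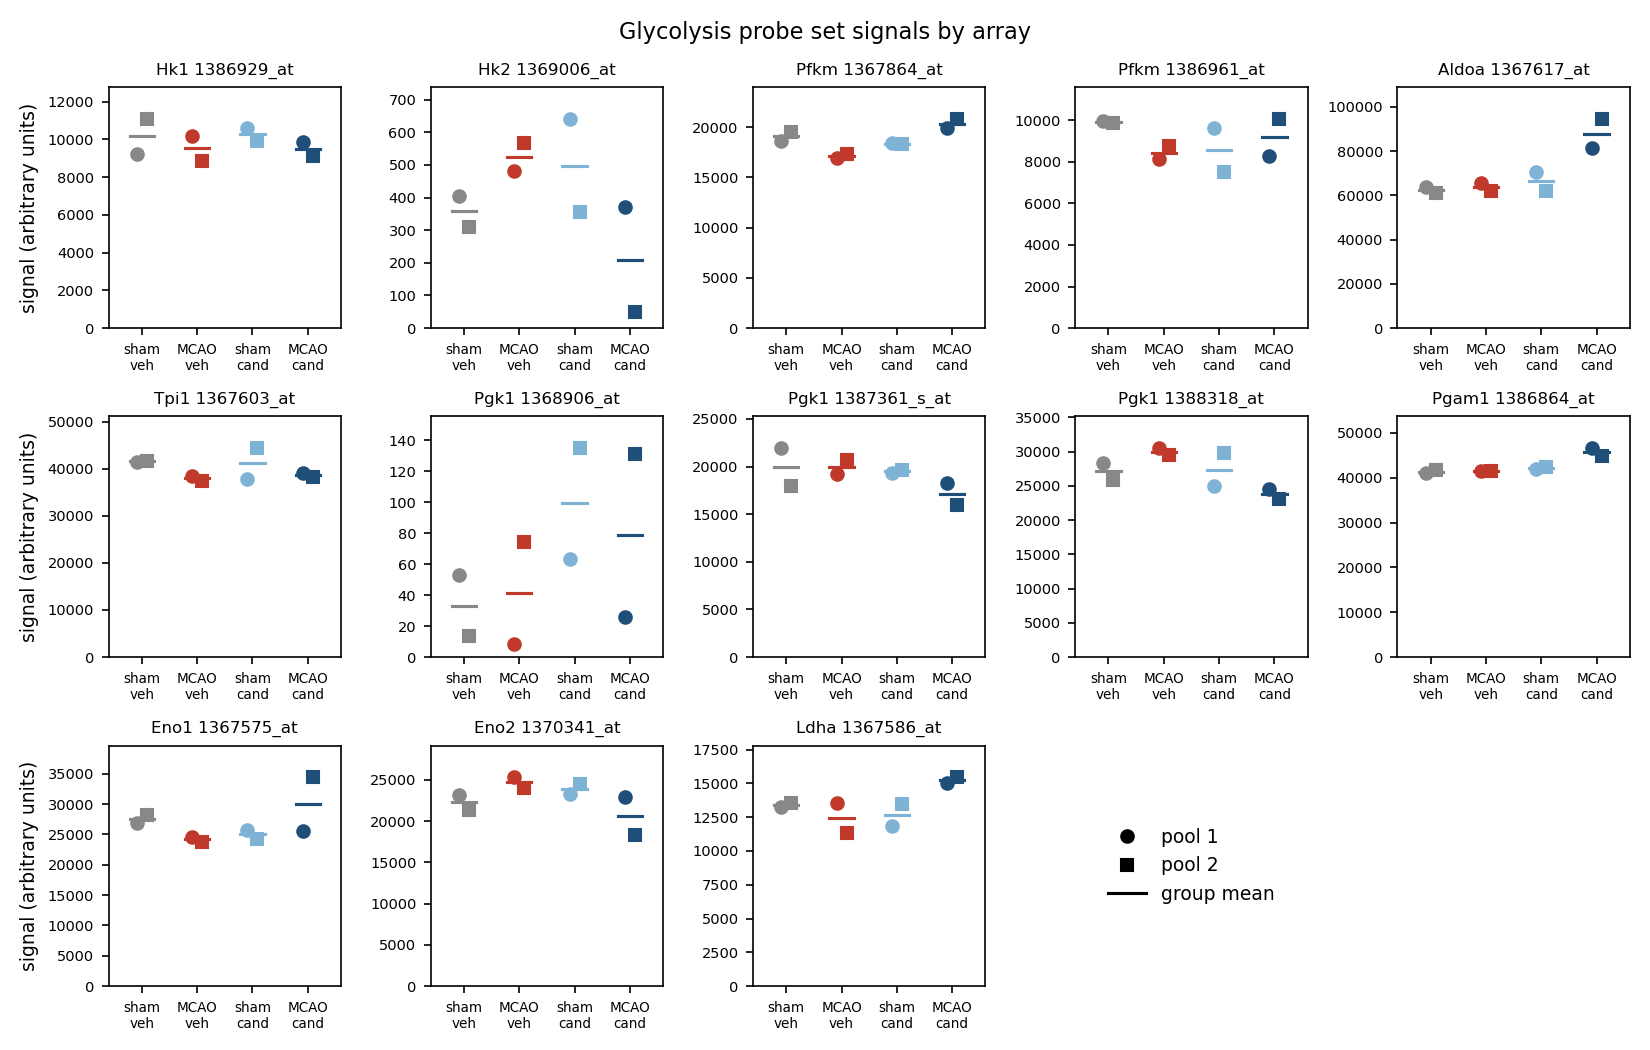
Deposited signal (arbitrary units, linear axis from 0) of each of the 13 glycolysis probe sets on the 8 arrays; circles are pool 1, squares pool 2 and lines group means. The pools lie close together for most probe sets, and Aldoa is highest on both MCAO candesartan arrays.

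MCAO alone left the tested glycolysis messengers close to their sham levels, which does not cover Hk2. In vehicle rats, 0 of the 11 tested probe sets was called, and their median difference between MCAO and sham was -0.09, beside 0.01 over all probe sets tested. For comparison, 0.262% of the probe sets tested were called in this comparison, all of them higher after MCAO. The single differences ran from -0.22 to 0.15, with limma adjusted p between 0.825 and 1.00, and 0 of the 11 had an unadjusted p under 0.05, beside 7.04% of all probe sets tested. The confidence intervals of the 11 all lay between 0.689-fold and 1.35-fold, so that a larger rise or fall at 2 h falls outside the interval of each of these probe sets. The 2 MCAO arrays did not overlap the 2 sham arrays for 6 probe sets, 2 higher and 4 lower, whereas 45.2% of all probe sets tested did not overlap.

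The first enzyme, hexokinase, traps glucose in the cell as glucose 6-phosphate. Hk1, the main hexokinase of brain, read 9235.1 and 11080.8 in sham vehicle rats, 10179.0 and 8871.3 after MCAO with vehicle, 10605.4 and 9921.5 in sham candesartan rats, and 9837.5 and 9101.4 after MCAO with candesartan. The groups overlapped in vehicle rats, and in candesartan rats both MCAO arrays lay slightly below both sham arrays. Over both pretreatments the difference was -0.10 ± 0.09 (SE, limma adjusted p = 0.772). Hk2, the inducible hexokinase, was dim, with 405.4 and 309.9, then 482.4 and 567.4, then 640.9 and 354.4, then 369.9 and 49.0 in the same order of groups. Without the signal filter its difference between MCAO and sham was 0.30 ± 0.28 in vehicle rats and -0.62 ± 0.28 in candesartan rats (SE, limma adjusted p = 0.962 and 0.470). The lowest of its 8 signals was that of MCAO candesartan 2, and no signal of this probe set reached the filter.

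Phosphofructokinase commits the sugar to glycolysis, and Pfkm encodes its muscle-type subunit. Its probe set 1367864_at read 18635.6 and 19484.1 in sham vehicle rats, 16957.1 and 17359.7 after MCAO with vehicle, 18385.8 and 18269.7 in sham candesartan rats, and 19868.4 and 20813.1 after MCAO with candesartan. The MCAO arrays lay below the sham arrays in vehicle rats and above them in candesartan rats, by -0.15 ± 0.10 and 0.15 ± 0.10 (SE, limma adjusted p = 0.854 and 0.586). The second probe set of the gene, 1386961_at, read 7525.5 to 10070.6 over all arrays. It differed in the same directions, by -0.22 and 0.10, and in candesartan rats its groups overlapped; without MCAO candesartan 2 the second value was -0.04.

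Aldolase cleaves the hexose into a pair of triose phosphates, and Aldoa encodes aldolase A. Its signal was 63926.7 and 60962.8 in sham vehicle rats, 65387.0 and 61786.2 after MCAO with vehicle, 70647.9 and 62166.2 in sham candesartan rats, and 81216.2 and 94575.3 after MCAO with candesartan. Both arrays of the last group lay above the other 6, which overlapped one another. The difference between MCAO and sham was 0.03 in vehicle rats (95% confidence interval -0.25 to 0.30) and 0.40 in candesartan rats (0.12 to 0.68, limma adjusted p = 0.278). The latter was 0.19 after quantile normalization, 0.17 after cyclic loess and 0.29 without MCAO candesartan 2. Tpi1, the triosephosphate isomerase that interconverts the trioses, read 41419.9 and 41649.6, then 38461.3 and 37446.4, then 37790.0 and 44422.4, then 39078.4 and 38336.0 in the same order of groups. All 4 MCAO arrays lay below the median of the sham arrays, and the difference over both pretreatments was -0.11 ± 0.08 (SE, limma adjusted p = 0.729; exact permutation p = 0.114, two-sided).

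Pgk1 encodes phosphoglycerate kinase, which makes ATP in the pathway. Its probe set 1388318_at read 28401.1 and 25885.8 in sham vehicle rats, 30548.4 and 29444.4 after MCAO with vehicle, 24918.5 and 29799.4 in sham candesartan rats, and 24614.4 and 23098.1 after MCAO with candesartan. The last group lay below the other 6 arrays. The difference between MCAO and sham was 0.14 ± 0.12 in vehicle rats and -0.19 ± 0.12 in candesartan rats (SE, limma adjusted p = 0.884 and 0.548). Probe set 1387361_s_at, whose suffix in Affymetrix names marks probes shared by several transcripts, read 16006.2 to 21964.9 and gave 0.00317 and -0.19 for the same differences. The third, 1368906_at, read 8.5 to 135.0 on the 8 arrays and is not interpreted. Pgam1, phosphoglycerate mutase, was the steadiest member, with a highest signal 1.14 times the lowest over the 8 arrays. It read 41053.5 to 42391.8 on 6 arrays and 46661.3 and 44951.4 after MCAO with candesartan.

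Enolase forms phosphoenolpyruvate, Eno1 being the widely expressed form and Eno2 the neuronal form. Eno1 read 26851.9 and 28122.9 in sham vehicle rats, 24573.6 and 23774.0 after MCAO with vehicle, 25789.3 and 24311.5 in sham candesartan rats, and 25540.2 and 34488.4 after MCAO with candesartan. Its highest value came from MCAO candesartan 2, while the other pool of that group lay within the range of the sham candesartan arrays. Eno2 read 23118.7 and 21385.2, then 25348.4 and 24008.4, then 23274.3 and 24508.5, then 22954.7 and 18262.2 in the same order, with its lowest value on MCAO candesartan 2. The difference between MCAO and sham was -0.18 ± 0.14 for Eno1 and 0.15 ± 0.13 for Eno2 in vehicle rats (SE, limma adjusted p = 0.860 and 0.889). In candesartan rats it was 0.24 ± 0.14 and -0.22 ± 0.13 (adjusted p = 0.505 and 0.513), and without MCAO candesartan 2 it was 0.03 and -0.06.

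Ldha encodes the lactate dehydrogenase subunit that favours the formation of lactate. It read 13228.7 and 13549.3 in sham vehicle rats, 13532.8 and 11347.3 after MCAO with vehicle, 11866.1 and 13455.2 in sham candesartan rats, and 15062.9 and 15484.9 after MCAO with candesartan. The 2 last values were above the other 6, which overlapped. The difference between MCAO and sham was -0.11 ± 0.12 in vehicle rats and 0.27 ± 0.12 in candesartan rats (SE, limma adjusted p = 0.931 and 0.413).

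**Figure D2:**
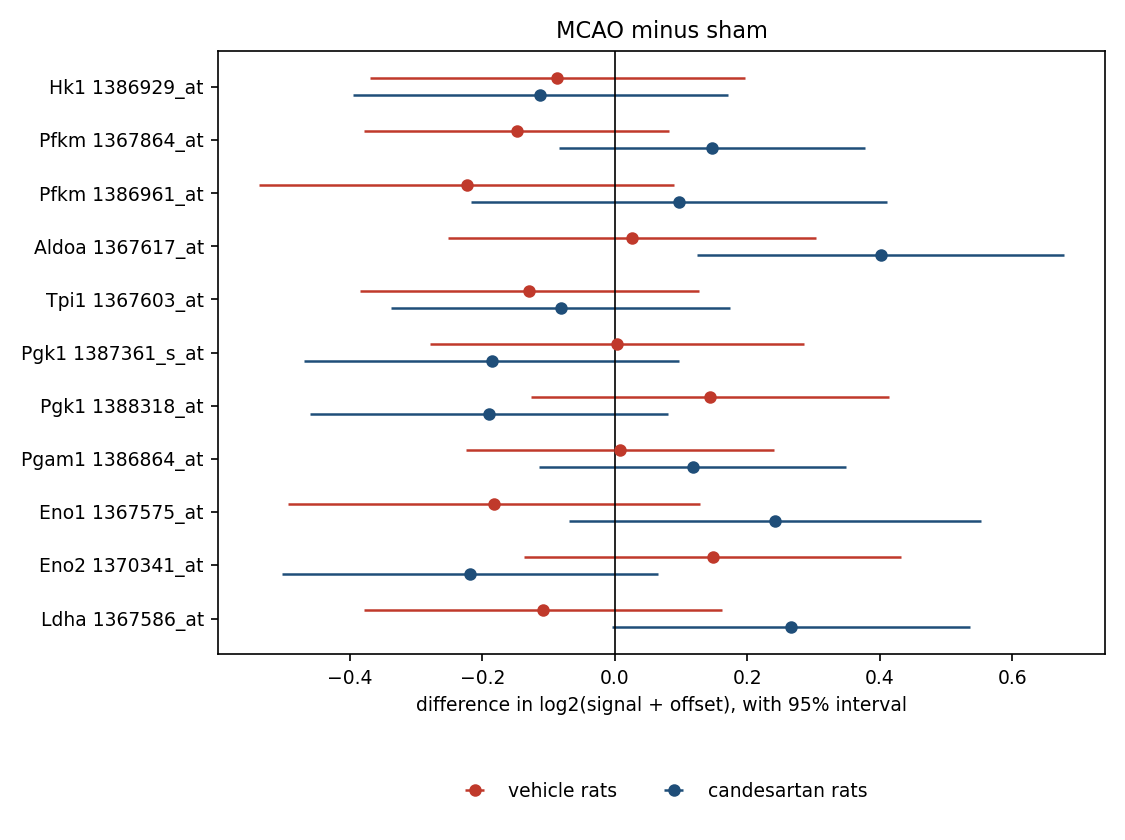
Difference in log2(signal + offset) between MCAO and sham for the 11 tested glycolysis probe sets (points, with 95% confidence intervals as bars), in vehicle rats and in candesartan rats. In vehicle rats all 11 intervals include 0; in candesartan rats that of Aldoa runs from 0.12 to 0.68 with the deposited scaling, and it was not called.

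In candesartan rats, 0 of the 11 probe sets was called between MCAO and sham, where 0.242% of all probe sets tested were called. The median difference was 0.10 (all probe sets, -0.03), the range -0.22 to 0.40 and the adjusted p between 0.278 and 0.820 by limma. Aldoa alone had an unadjusted p under 0.05, as did 12.4% of all probe sets tested. The MCAO and sham arrays did not overlap for 4 probe sets that were higher and 4 that were lower, beside 38.2% of all probe sets. Over both pretreatments together, 0 of 11 was called (all probe sets, 0.417%), and the differences ran from -0.11 for Tpi1 to 0.21 for Aldoa (limma adjusted p between 0.473 and 0.998; unadjusted p under 0.05 for Aldoa, and for 9.52% of all probe sets). No member separated all 4 MCAO arrays from all 4 sham arrays, which 5.22% of the probe sets did. The exact permutation test over the 8 arrays, whose smallest possible p is 0.0286, gave p between 0.114 and 1 for the 11 members.

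Candesartan pretreatment was compared with vehicle after each surgery. After sham surgery 0 of 11 was called, with a median of -0.02 (all probe sets, 0.01) and a range of -0.21 to 0.10. In this comparison 0% of all probe sets were called by limma, with 3.92% at an unadjusted p under 0.05, and 0 of the members was at that level. Arrays did not overlap for 2 members that were higher and 3 that were lower (all probe sets, 33.8%). After MCAO the differences were wider. Again 0 of 11 was called, beside 0.0679% of all probe sets, but the members ran from -0.33 for Pgk1 1388318_at to 0.46 for Aldoa, with a median of 0.11 (all probe sets, -0.03). Aldoa was 1.38-fold higher on this scale, or 0.46 ± 0.13 (SE, limma adjusted p = 0.250). Ldha differed by 0.29 ± 0.12 (adjusted p = 0.352), Eno1 by 0.29 ± 0.14 (0.405), Pfkm 1367864_at by 0.24 ± 0.10 (0.368), Eno2 by -0.26 ± 0.13 (0.409) and Pgk1 1388318_at by -0.33 ± 0.12 (0.306). Unadjusted p was under 0.05 for 4 of these probe sets, those of Aldoa, Pgk1, Ldha and Pfkm, as it was for 13.1% of all probe sets tested. Arrays did not overlap for 5 members that were higher and 3 that were lower (all probe sets, 41.8%).

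**Figure D3:**
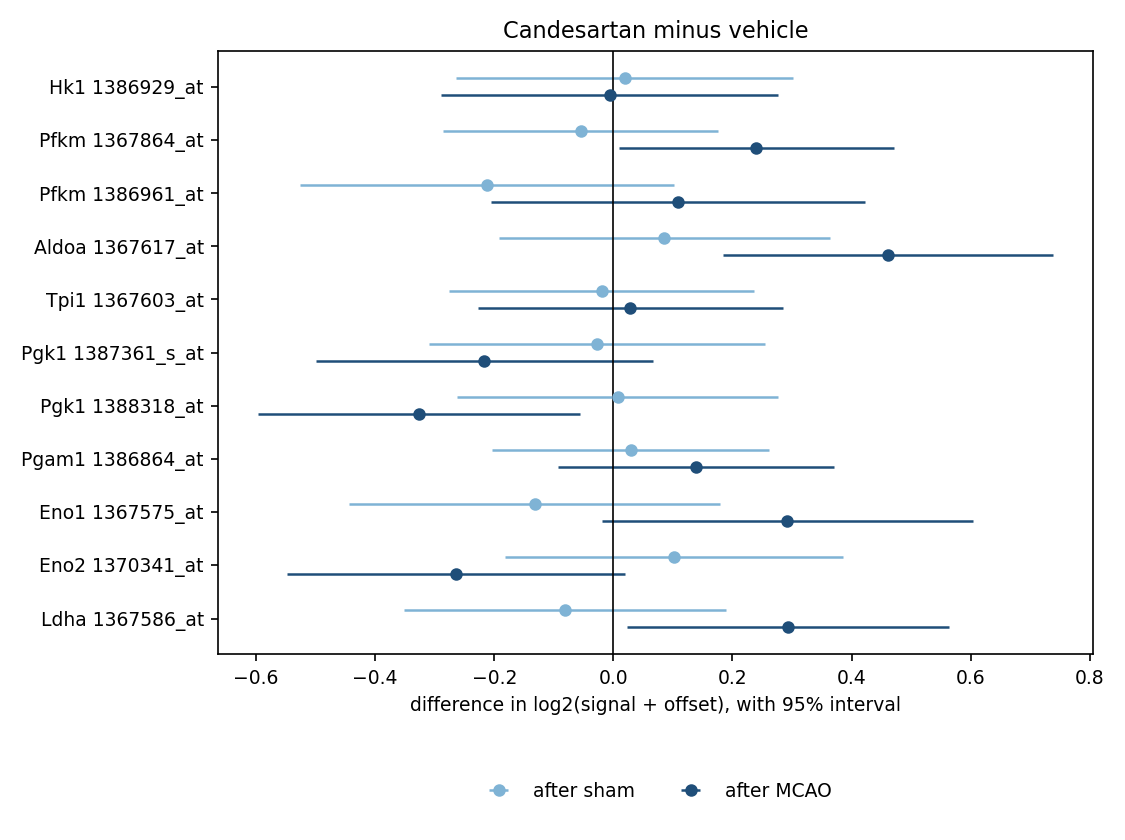
Difference in log2(signal + offset) between candesartan and vehicle for the 11 tested glycolysis probe sets (points, with 95% confidence intervals as bars), after sham surgery and after MCAO. After MCAO the values spread from -0.33 for Pgk1 1388318_at to 0.46 for Aldoa; none was called in either comparison.

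The MCAO candesartan arrays lay apart from all others on 5 of the 11 probe sets. Pfkm 1367864_at, Aldoa, Pgam1 and Ldha were higher on both MCAO candesartan arrays than on any of the other 6, and Pgk1 1388318_at was lower. Among all probe sets tested, 15.7% had both arrays of this group outside the range of the other 6, in either direction. The test of the difference itself, the effect of MCAO in candesartan rats minus that in vehicle rats, called 0 of the 11 members and 0.0194% of all probe sets. The differences of effect ran from -0.37 for Eno2 to 0.42 for Eno1, and the limma adjusted p from 0.563 to 0.980, with 0 members at an unadjusted p under 0.05 (all probe sets, 8.87%). Without MCAO candesartan 2 these ends were -0.20 for Eno2 and 0.21 for Eno1. Both comparisons of MCAO with sham have their own sham arrays, while candesartan after MCAO shares the MCAO arrays with each of them.

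The size and, for some members, the direction of the candesartan differences after MCAO depended on the array that stood apart and on the scaling. Without MCAO candesartan 2, Aldoa differed by 0.35, Ldha by 0.27, Pgk1 1388318_at by -0.28, Eno1 by 0.08 and Eno2 by -0.10. Without MCAO candesartan 1, which leaves that array as the only one of its group and assumes that it varies like the other groups, Aldoa reached 0.57 (limma adjusted p = 0.00999), Eno1 0.51 (0.0155) and Eno2 -0.43 (0.0366). Over the 18 alternatives the adjusted p ran up to 0.789 for Aldoa, 0.831 for Eno1 and 0.793 for Eno2. In the fit without MCAO candesartan 1, 986 probe sets of the whole array were called, against 7 with both arrays. Quantile normalization gave 0.14 for Aldoa, 0.10 for Eno1 and 0.20 for Ldha, and it turned Pgam1 from 0.14 to -0.14 and Tpi1 from 0.03 to -0.21. Pgk1 1388318_at and Eno2 stayed lower under each of these settings, at -0.50 and -0.40 after quantile normalization. The median of the 11 probe sets, 0.11 with the deposited scaling, was -0.0532 after quantile normalization and -0.0623 after cyclic loess. For MCAO against sham in candesartan rats the median of 0.10 likewise became -0.0608 and -0.0614.

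**Figure D4:**
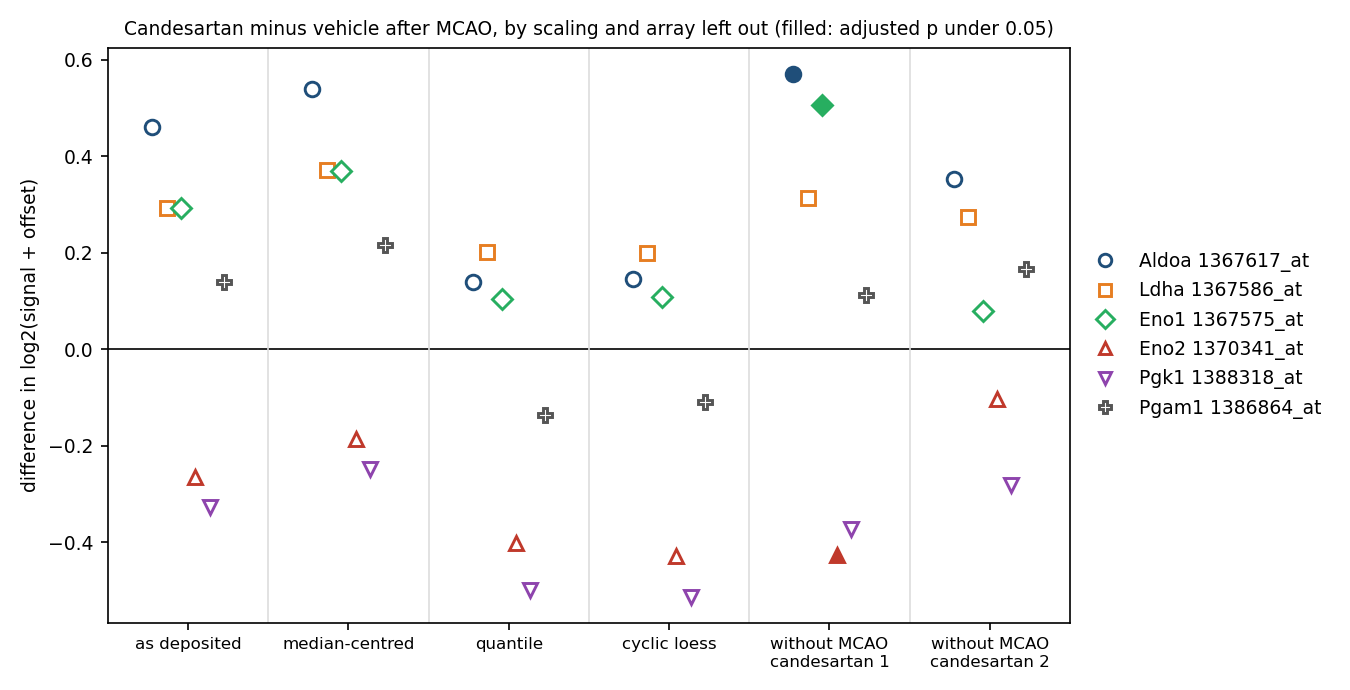
Difference in log2(signal + offset) between candesartan and vehicle after MCAO for 6 glycolysis probe sets, under 4 scalings of the arrays and without either MCAO candesartan array; filled symbols have an adjusted p under 0.05. Aldoa falls from 0.46 to 0.14 with quantile normalization, and Aldoa, Eno1 and Eno2 are filled only where MCAO candesartan 1 is left out.

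Markers of cell types were read on the same arrays. The summed signal of 9 neuron markers was 214177 and 243211 on the MCAO candesartan arrays and 179784 to 206729 on the other 6. Snap25 alone made these sums high, since without it they were 127984 and 129222 on the MCAO candesartan arrays and 116801 to 133210 on the others. Between candesartan and vehicle after MCAO, 7 of the 9 neuron markers lay above 0, and the median of the 9 was 0.12. Snap25 differed by 0.64 (limma adjusted p = 0.239), and the others above 0 ran from 0.06 for Nefm to 0.27 for Rbfox3. The 2 below 0 were Tubb3 at -0.18 and Map2 at -0.0060. The sum of 7 oligodendrocyte markers was 380822 on MCAO candesartan 2 and 264578 to 292197 elsewhere, and here Mbp alone made it high. Without Mbp the sum was lowest on that array, at 149628 against 160630 to 186583 on the other 7. For candesartan against vehicle after MCAO, 5 of the 7 oligodendrocyte markers lay below 0, and the median of the 7 was -0.20. The lowest were Mag at -0.58 and Cnp at -0.29. The 2 above 0 were Mbp at 0.70 and Mobp at 0.01. Mag read 9813.2 on MCAO candesartan 2 and 18365.7 on the other pool of that group, against 18849.7 and 21721.9 after MCAO with vehicle. Mbp read 231193.7 and 122216.7 on the same pools, against 100814.4 and 105614.4. The sum of 9 astrocyte markers ran from 142525 to 185035. That of 9 microglia and macrophage markers, including dim ones, ran from 12222 to 17964, with its lowest 2 values on the MCAO candesartan arrays. For MCAO against sham, all 9 astrocyte markers lay below 0 in vehicle rats (median -0.18), as did 7 in candesartan rats (-0.15). Of the 7 tested microglia and macrophage markers, 5 and 6 lay below 0 (medians -0.04 and -0.22). Over both pretreatments all 9 and all 7 lay below 0, with medians of -0.17 and -0.15. The next sums also include markers below the signal filter. They were 10033 to 12964 for 5 endothelial markers and 80268 to 110403 for 4 of blood cells. For 3 choroid plexus markers they were 47905 to 62469, and for 5 of muscle and liver 13560 to 19836. None of the 44 marker genes past the signal filter was called in any of the 6 comparisons. The part of these marker values in the glycolysis values was not tested. Defining markers of neutrophils (S100a8 and S100a9) were below the signal filter.

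The other genes of glucose metabolism were read from lists of related pathways, 50 tested genes in all, and 0 of them was called in any of the 6 comparisons. Of 16 further glycolysis enzymes and isozymes, 7 were tested, with medians of -0.01 for MCAO against sham in vehicle rats and 0.10 in candesartan rats. Between candesartan and vehicle after MCAO, Aldoc, the aldolase of astrocytes, differed by 0.48 ± 0.19 and Gpi, glucose phosphate isomerase, by 0.27 ± 0.12 (SE, limma adjusted p = 0.334 and 0.368). Aldoc read 67315.2 on MCAO candesartan 2 and 37103.4 to 44492.1 on the other 7 arrays, and the other pool of its group lay within that range. Adpgk, an ADP-dependent glucokinase, was -0.37 ± 0.14 between candesartan and vehicle after MCAO (SE, limma adjusted p = 0.325). For MCAO against sham in candesartan rats it was -0.43 ± 0.14 (SE, limma adjusted p = 0.293). Of the 7 tested genes, 4 lay above 0 and 3 below between candesartan and vehicle after MCAO. Among 7 carriers of glucose and lactate, 5 were tested and ran from -0.18 to 0.20 for MCAO in vehicle rats. Slc2a1, the glucose carrier of the blood-brain barrier, differed by 0.04, and Slc2a3, the neuronal carrier, by 0.20.

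Regulators of the flux were measured next. Pfkfb3 makes fructose 2,6-bisphosphate, the activator of phosphofructokinase. Its signal was 780.3 and 736.9 in sham vehicle rats, 1323.7 and 1099.8 after MCAO with vehicle, 799.3 and 689.4 in sham candesartan rats, and 1014.8 and 1160.2 after MCAO with candesartan. The difference over both pretreatments was 0.44 ± 0.13 (SE, limma adjusted p = 0.246). Pfkfb3 passed the signal filter through its MCAO arrays alone, as its 4 sham arrays lay below 916.3, so it was tested because it was high there. Pdp1, the phosphatase that switches pyruvate dehydrogenase on, differed by 0.30 ± 0.10 over both pretreatments (adjusted p = 0.341), with all MCAO arrays above all sham arrays, as for 5.22% of the probe sets tested in either direction. Of the 10 genes in this list 7 were tested, with medians of 0.18 for MCAO in vehicle rats and -0.04 in candesartan rats. For pyruvate dehydrogenase and the entry of pyruvate into mitochondria, 7 of 9 genes were tested and 0 called. Pdha1, its catalytic subunit, was -0.30 ± 0.14 for MCAO in vehicle rats (adjusted p = 0.691). In the pentose phosphate and glycogen list, 11 of 14 genes were tested and the medians lay between -0.16 and -0.00126 over the 6 comparisons.

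Of 19 hypoxia response genes outside glycolysis, 13 were tested, with a median of 0.05 for MCAO in vehicle rats and -0.02 in candesartan rats. Hmox1, heme oxygenase 1, read 785.0 and 986.8 in sham vehicle rats, 1946.6 and 2078.1 after MCAO with vehicle, 983.8 and 1061.3 in sham candesartan rats, and 796.8 and 1240.7 after MCAO with candesartan. It was above all other arrays in the MCAO vehicle group, by 0.93 ± 0.19 over sham (SE, limma adjusted p = 0.117; 0.0172 to 0.847 over the alternatives, the lowest with only the 2 groups compared). P4ha1, a collagen prolyl hydroxylase, differed by 0.41 ± 0.12 over both pretreatments (adjusted p = 0.239). Epas1, which encodes HIF-2α, read 4750.5 and 4086.0 after MCAO with candesartan and 6725.7 to 8782.7 on the other 6 arrays. Its difference between candesartan and vehicle after MCAO was -0.91 ± 0.14 (SE, limma adjusted p = 0.0559; 0.00561 to 0.577 over the alternatives, 0.0380 after quantile normalization and 0.0475 after cyclic loess). Apart from Hmox1 and Epas1, the called values of these 50 genes under any alternative came from the fit without MCAO candesartan 1.

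**Figure D5:**
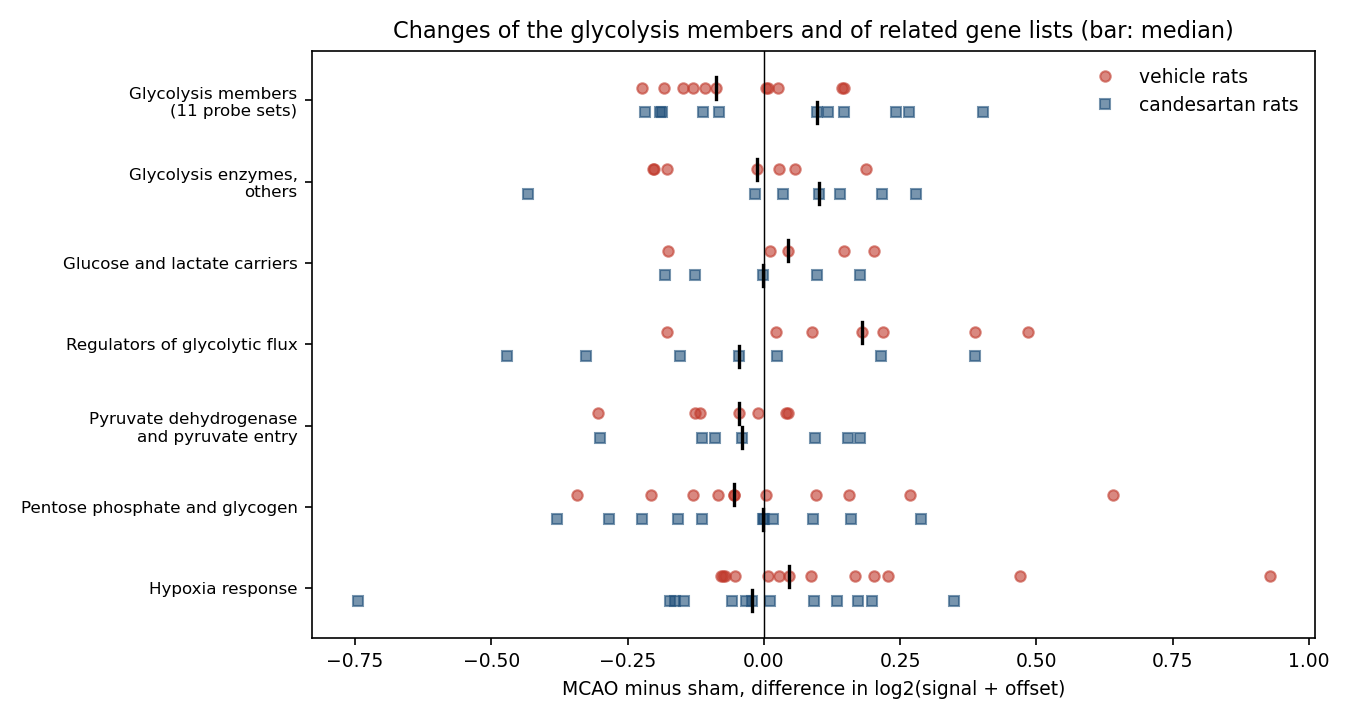
Difference in log2(signal + offset) between MCAO and sham for the 11 glycolysis probe sets and for the tested genes of 6 related lists, in vehicle rats (circles) and candesartan rats (squares); bars are medians. The glycolysis probe sets lie between -0.22 and 0.40, and the farthest points are Hmox1 at 0.93 in vehicle rats and Epas1 at -0.74 in candesartan rats.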

How the data were processed

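RNA levels were read on 8 arrays (Affymetrix RAE 230A), 2 pools in each of 4 groups. The authors deposited linear signal intensities, made with GCOS per the submitters' processing notes; its version and settings are not given in the sources used here. Their trimmed means (2% from each end) differ by at most 0.000426% between arrays, so the deposited intensities carry a common scaling. The table holds 15923 probe sets, and its 57 control sets were set aside. Gene symbols come from GEO's platform annotation, which can be old; 12783 probe sets have 1 symbol, and probe sets of several symbols, among them those of Gapdh and Pkm, were named for no gene.

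From the deposited intensities, log2(signal + 369.9) was fitted with limma 3.58.1 in R 4.3.3 (lmFit, eBayes with a variance trend, 4 group means, 4 residual degrees of freedom), with Benjamini-Hochberg adjustment over 10310 probe sets and calls at 0.05. The fit was tested on simulated data with the same spread on every array, which do not bear on the array that stood apart or the scaling. The number of arrays limits the precision. The exact permutation test had 70 arrangements; 2 against 2 arrays cannot go below p = 0.333. The number of alternatives tried was 18. The members and lists were chosen with earlier results of these data known. All member probe sets are described; from each other list, called genes or otherwise the 2 with the smallest p in each comparison could be named, with a few fixed genes (Gpi, Aldoc, Slc2a1, Slc2a3). For a listed gene with several probe sets, the brightest was used. Motifs were searched in RefSeq promoters (GRCr8).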

Additional observations from a re-analysis of the deposited data

How the results depend on the processing

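Of 1166 values of single glycolysis probe sets over 18 alternatives, 57 turned sign, none of them called, and 6 were called, all without MCAO candesartan 1. Without each array in turn, the number of glycolysis probe sets called by limma was 0 to 2 for MCAO in candesartan rats, 0 to 3 for candesartan after MCAO and 0 to 1 for the difference of effects, the highest without MCAO candesartan 1. The number called over all probe sets ranged from 7 to 43 for MCAO in vehicle rats, 5 to 835 for MCAO in candesartan rats, 0 to 986 for candesartan after MCAO, 21 to 389 over both pretreatments and 0 to 296 for the difference. The median glycolysis difference ranged from -0.132 to 0.00735, from -0.0385 to 0.111, from 0.0480 to 0.139, from -0.0363 to 0.00442 and from 0.0831 to 0.150 in the same order. Other alternatives moved the medians by more than their spread between pools (0.0326). With quantile normalization they were -0.0330 for MCAO in vehicle rats, -0.0608 in candesartan rats, -0.0532 for candesartan after MCAO and -0.106 for the difference. With cyclic loess they were -0.0456, -0.0614, -0.0623 and -0.105, and -0.0577 over both pretreatments. With median-centred arrays they were -0.153, 0.158, 0.186 and 0.237, and -0.0688 for candesartan after sham. The cause was not tested. Counts over all probe sets moved as follows. For MCAO in vehicle rats they were 12 with no signal filter and 93 with only the groups compared, against 27. For MCAO in candesartan rats they were 16 and 11 under these settings, against 25. For candesartan after MCAO they were 2 with the offset at the 5th percentile, 0 with no filter, 4 with no variance trend and 0 with only the groups compared, against 7. The difference of effects gave 0 in place of 2 with that offset, with no filter and with the stricter filter. With the replicate number as a block (replicate block), 4 probe sets were called for candesartan after MCAO and 0 for the difference, and 0 glycolysis probe sets in any comparison. Deviations of same-numbered arrays correlated between -0.0951 and 0.137, so the numbers were not taken to pair the samples. For the genes of the related lists, 18 of 5252 values were called over the same alternatives, and 14 of these came without MCAO candesartan 1; applying the alternatives to these genes was decided after seeing the data.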
